A study of Mus musculus with 6 samples.

Results

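Autophagy begins when the ULK kinase complex and the Beclin 1 lipid kinase complex mark a membrane that grows into the autophagosome. Lipid transfer and scramblase proteins enlarge that membrane, and a ubiquitin-like conjugation system attaches small proteins to it, which bind cargo receptors. Mitochondria reach this machinery either through receptors in their outer membrane, such as Bnip3l (also called Nix) and Bnip3, or through the kinase PINK1 and ubiquitin ligases, and in B cells autophagy is known for its part in the survival of memory cells. The genes described here are those of autophagosome initiation, conjugation and the PINK1 pathway, chosen as 41 listed gene symbols. Of these, 39 had a row in the table of 35186 symbols, and Rubcn and Csnk2a1 are not analysed here.

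RNA was sequenced from NP-specific memory B cells sorted from the spleens of C57BL/6J mice, whose age and number the sources used here do not give. The mutant cells carried the genotype Nix-/-Bnip3-/- (called DKO in the deposited table, 3 libraries), and the comparison cells were wild type (WT, 3 libraries). Each library came from a small pool of sorted cells and amplified cDNA enriched for polyadenylated RNA. The labels do not tie libraries to individual mice, and the p-values below therefore capture only the spread between libraries, part of which may be technical.

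Library totals were 444461 to 517057 counts in DKO and 312908 to 500527 counts in WT. Between 23580 and 24787 symbols had a count in DKO libraries, and between 17831 and 18486 in WT libraries; WT library 2, with more counts than DKO library 1, still had 18410 symbols against 23580. Spearman correlations across tested genes were 0.466 to 0.496 among DKO libraries, 0.152 to 0.157 among WT libraries and 0.135 to 0.203 between the groups, so the WT libraries shared little with each other. Bnip3l had 10, 16 and 41 counts in DKO against 1, 8 and 0 in WT, which goes against the label of the DKO libraries, and Bnip3 had 2, 24 and 11 against 25, 62 and 6. Neither passed the test (edgeR adjusted p = 0.539 and 0.412), their log2 fold changes of 1.76 and -2.50 were 3.94 and -1.73 without WT library 2, and counts per gene cannot show a deleted exon, so the groups below are the libraries labelled DKO and WT. Several B cell markers had few counts in both groups: Cd79a, a subunit of the B cell receptor, had 0, 2 and 4 counts in DKO and 3, 0 and 0 in WT. Others had more and differed in direction. Ptprc had 97, 60 and 71 counts in DKO and 32, 17 and 18 in WT (log2 fold change 0.51). Ms4a1 had 42, 70 and 65 in DKO and 28, 0 and 8 in WT (0.90). Pax5 had 25, 16 and 0 in DKO and 0, 59 and 1 in WT (-1.45). The 8 listed B cell markers together had 294.4 to 402.6 normalized CPM in DKO and 241.6 to 351.6 in WT. Normalized CPM are CPM values computed on each library's counts in tested genes after TMM scaling.

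Markers of other cells stood apart between the groups in 3 of the 6 lists tried, and the sums of the T cell, plasma cell and erythroid lists overlapped. The 5 monocyte and macrophage markers analysed summed to 357.4 to 737.9 normalized CPM in DKO and 31.34 to 200.9 in WT. Itgam had 81, 181 and 147 counts in DKO and 1, 9 and 21 in WT, and Lyz2 was also higher in every DKO library. Csf1r had 15, 10 and 27 counts in DKO and 0, 43 and 5 in WT, with a lower mean normalized CPM in DKO. Cd68 had 27, 5 and 1 counts in DKO and 1, 0 and 0 in WT, and Cd14 was at 0 in every DKO library. The 5 stromal and endothelial markers summed to 165.6 to 305.4 in DKO and 430.6 to 898.4 in WT, and the 5 neutrophil markers to 71.65 to 110.8 in DKO and 130.6 to 351.8 in WT. None of these 3 lists moved as a whole. In the stromal and endothelial list Pecam1 had 72, 55 and 60 counts in DKO and 13, 5 and 3 in WT, and Vim had 10, 5 and 9 in DKO and 0, 0 and 1 in WT, both higher in every DKO library. In WT most of the neutrophil sum came from Ltf, with 25, 37 and 51 counts, against 6, 13 and 17 in DKO. In DKO library 1 the largest term was S100a8, with 28, 0 and 0 counts in DKO and 0, 0 and 1 in WT. S100a9 had 1, 7 and 3 counts in DKO and 0, 0 and 12 in WT. Ngp was higher in every DKO library (14, 10 and 14 counts, against 0, 1 and 3 in WT), and Camp had 0, 10 and 3 counts in DKO and 0 in every WT library. The part of these cells in the values below was not tested, and in bulk RNA fewer cells of a type and less RNA per cell cannot be told apart.

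Reads of the pathway were few. At least 10 counts were found for 20, 24 and 19 of the 39 genes in DKO libraries 1, 2 and 3, and for 7, 18 and 11 in WT libraries 1, 2 and 3. At least 1 count was found for 36, 38 and 38 of the 39 genes in DKO and for 30, 33 and 30 in WT, which follows the difference in symbols counted in the whole libraries. After the filter on low counts 17 genes were tested, 21 were under the filter, and Map1lc3a had no count in any library, where 3 counts correspond to 5.522 to 15.75 normalized CPM. The filter kept a gene when at least 3 libraries reached 21.2 CPM, so a gene high in every DKO library passed by itself; of the 17, Atg7 passed through DKO libraries alone. Over all genes tested, 815 passed through DKO libraries alone (9.16%) and 77 through WT libraries alone, so the filter kept more genes that were high in DKO.

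In edgeR's quasi-likelihood test with Benjamini-Hochberg adjustment no gene of the pathway passed 0.05, and neither did any of the 8895 genes tested (0%), while 488 genes were higher (5.49%) and 586 lower (6.59%) in DKO at an unadjusted p under 0.05. Of the 17 pathway genes tested, 11 lay above 0 in log2 fold change and 6 below, where 45.5% of all tested genes lay above 0. Their median was 0.70, against -0.17 over all genes tested, and 13 of the 17 lay above that all-gene median. With library totals in place of TMM scaling the all-gene median was 0.62 and the split was 14 genes above 0 and 3 below, so directions near 0 depend on the scaling. Before adjustment, 3 pathway genes higher in DKO (Atg2b, Atg7 and Atg16l1) and 1 lower (Ulk1) had a p under 0.05. Every DKO library lay above every WT library for 5 genes, where 12.8% of all tested genes had that pattern, and below for 0, where the share of all genes was 6.39%. Of the 5, Atg7 had to differ to pass the filter, and the other 4 also had WT libraries past it. With no filter on low counts, 38 pathway genes could be fitted, of which 21 lay above 0 and 17 below. Their median was then 0.185, below the 0.294 of all genes fitted. With genes kept at a mean CPM of at least 10, the medians were 0.15 and -0.0888. The size of the higher median above therefore depends on the filter. Of the 21 pathway genes under the main filter, 15 had a lower mean normalized CPM in DKO and 6 a higher one. The share over all genes under the filter is not given. Genes high in every DKO library had passed the filter, and 1 count weighs more in WT after TMM scaling. These directions are therefore no result about the pathway. With no filter 0 pathway genes were called, against 22 of all genes called higher (0.0707%) and 108 lower (0.347%). DESeq2, run as an alternative on the same genes, called 3 of the 17 higher (Atg2b, Atg7 and Atg16l1) and 1 lower (Ulk1), and in all 218 genes higher (2.45%) and 383 lower (4.31%).

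**Figure D1:**
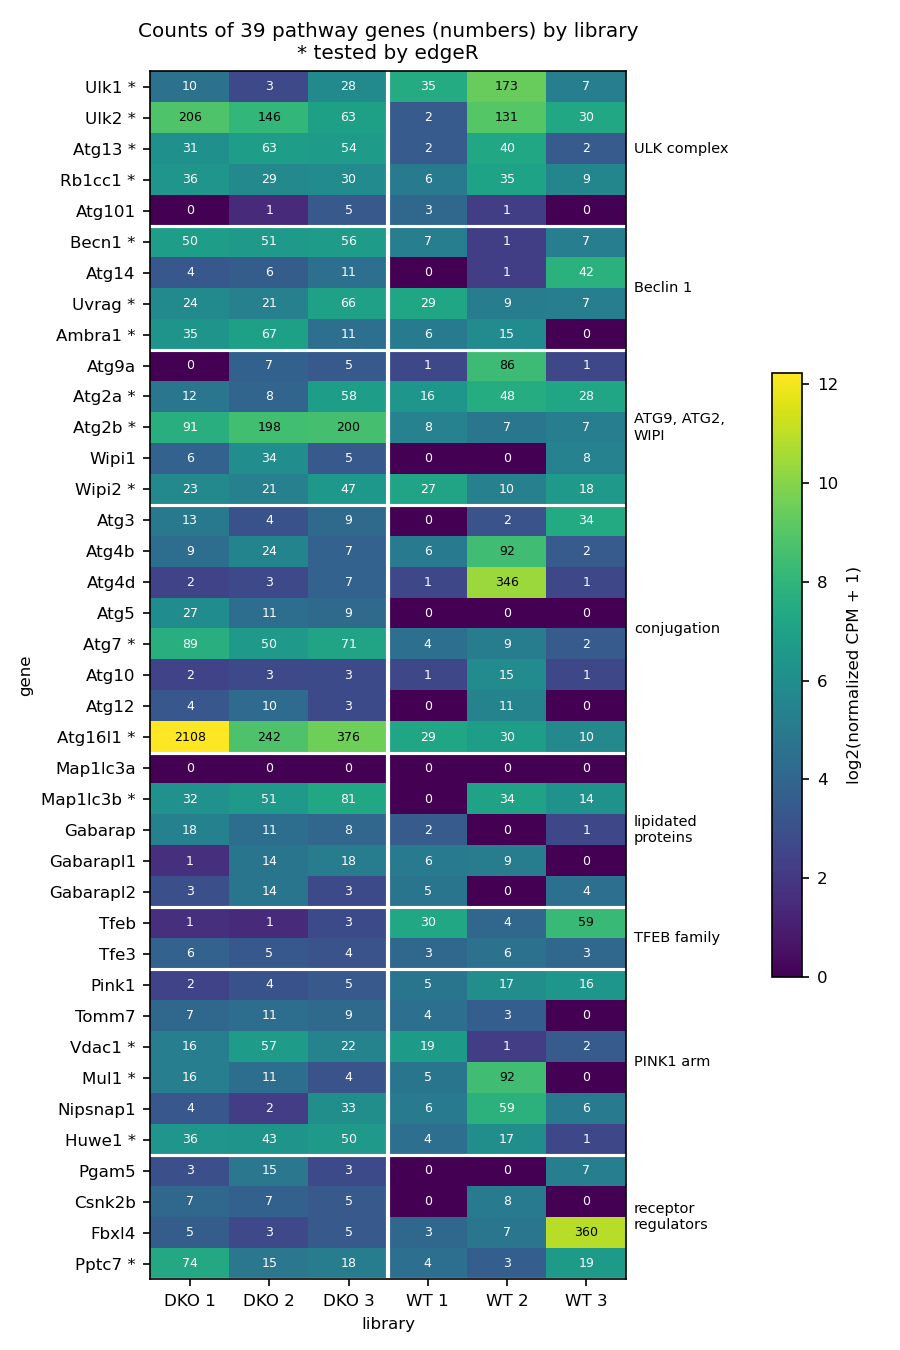
Counts of the 39 pathway genes in the 3 DKO and 3 WT libraries, ordered by step, with the raw count printed in each cell and colour giving log2(normalized CPM + 1); stars mark the 17 tested genes. Atg2b, Atg7, Atg16l1, Becn1 and Huwe1 are brighter in every DKO library, and single bright cells such as Atg4d in WT library 2 (346 counts) and Fbxl4 in WT library 3 (360 counts) stand alone in their rows.

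**Figure D2:**
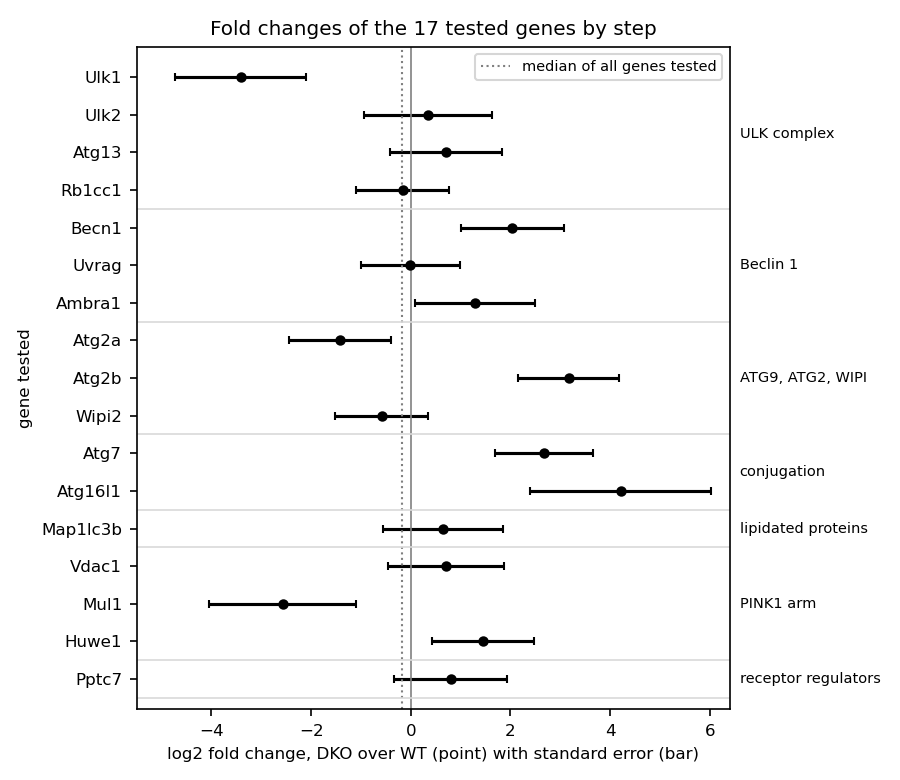
Log2 fold changes, DKO over WT, of the 17 tested genes grouped by step, with standard errors as bars and a dotted line at the median of all genes tested (-0.17). The points run between -3.42 for Ulk1 and 4.21 for Atg16l1, and no gene passed the adjusted test.

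In the ULK complex, which starts autophagosome formation, 2 of the 4 tested genes lay above 0 and 2 below, with a median log2 fold change of 0.09. Ulk1 (chromosome 5, 110784488 to 110810097, mm10), the kinase of the complex, had 10, 3 and 28 counts in DKO libraries 1, 2 and 3 and 35, 173 and 7 in WT libraries 1, 2 and 3. The groups overlapped, since WT library 3 lay below DKO library 3 in normalized CPM. Its means were 27.46 ± 24.71 normalized CPM in DKO and 296 ± 331 in WT (SD, n = 3 each), with a log2 fold change of -3.42 (SE 1.31, edgeR adjusted p = 0.390), which was -1.95 without WT library 2. Ulk2, the related kinase, had 206, 146 and 63 counts in DKO and 2, 131 and 30 in WT, so that WT library 2 was level with the DKO libraries. Atg13, the adaptor that holds the complex together, had 31, 63 and 54 counts in DKO and 2, 40 and 2 in WT. Its log2 fold change was 0.70, or 3.21 without WT library 2. Rb1cc1, the scaffold also called FIP200, had 36, 29 and 30 counts in DKO and 6, 35 and 9 in WT, and its fitted value was -0.16, which was above 0 without the filter or with library totals (0.67). In each of these 4 genes WT library 2 held the highest normalized value of all 6 libraries. Atg101, which stabilises Atg13, had at most 5 counts in any library and was not tested.

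The Beclin 1 complex makes the lipid phosphatidylinositol 3-phosphate at the forming autophagosome, and 2 of its 3 tested genes lay above 0 (median log2 fold change 1.29). Becn1 (chromosome 11, 101285952 to 101302286), which encodes Beclin 1, had 50, 51 and 56 counts in DKO and 7, 1 and 7 in WT. All 3 DKO libraries were close together and above all WT libraries. The means were 105.1 ± 10.03 normalized CPM in DKO and 25.73 ± 18.94 in WT (SD, n = 3 each), a log2 fold change of 2.04 (SE 1.03, edgeR adjusted p = 0.427) that stayed between 1.55 and 2.47 with any 1 library left out. Ambra1, a Beclin 1 partner that positively regulates the complex, had 35, 67 and 11 counts in DKO and 6, 15 and 0 in WT, with groups that overlapped (log2 fold change 1.29, SE 1.21). Uvrag, the subunit of the complex that acts on late endosomes, had 24, 21 and 66 counts in DKO and 29, 9 and 7 in WT, and its fitted value was near 0 at -0.01 (SE 0.997). Atg14, which directs the complex to the autophagosome, had 4, 6 and 11 counts in DKO and 0, 1 and 42 in WT, so that 83.0% of its summed normalized CPM lay in WT library 3. The row 1700021K19Rik, a RefSeq synonym of the inhibitor gene Rubcn, was not counted as a member and had 43, 15 and 11 counts in DKO and 8, 19 and 7 in WT. Becn1 lies across Cntd1 on the opposite strand, which had 11, 7 and 23 counts in DKO and 3, 2 and 0 in WT; reads of the 2 genes cannot be told apart, since the strand setting of the counting is unknown.

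Among the proteins that supply and shape the membrane, the 2 related lipid transfer genes lay in opposite directions. Atg2b (chromosome 12, 105616136 to 105685211) had 91, 198 and 200 counts in DKO and 8, 7 and 7 in WT. Every DKO library was above every WT library, and the lowest DKO value, 205.8 normalized CPM, compares with the highest WT value of 41.79. The means were 319.2 ± 98.9 in DKO and 35.20 ± 7.49 normalized CPM in WT (SD, n = 3 each), a log2 fold change of 3.17 (SE 1.02, edgeR adjusted p = 0.390; DESeq2 adjusted p = 0.0102). It stayed between 3.05 and 3.56 with any 1 library left out, the narrowest range among the 17 genes. Its neighbour on the opposite strand, Gskip, which overlaps Atg2b, had 27, 21 and 24 counts in DKO and 0, 2 and 1 in WT. Atg2a, the other lipid transfer gene, had 12, 8 and 58 counts in DKO and 16, 48 and 28 in WT (log2 fold change -1.43, SE 1.02), with DKO library 3 inside the WT range. Wipi2, which binds phosphatidylinositol 3-phosphate and recruits Atg16l1, had 23, 21 and 47 counts in DKO and 27, 10 and 18 in WT, and the groups overlapped. Its relative Wipi1 had 6, 34 and 5 against 0, 0 and 8 counts. Atg9a, the lipid scramblase, had 0, 7 and 5 counts in DKO and 1, 86 and 1 in WT, with 91.0% of its summed normalized CPM in WT library 2; neither Wipi1 nor Atg9a was tested.

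Of the 8 conjugation genes, 2 were tested, and both lay higher in every DKO library, Atg7 having passed the filter through DKO libraries alone. Of the 6 not tested, 5 had a lower mean normalized CPM in DKO. In each of these 5 genes 1 WT library held over 50% of the summed normalized CPM. The share over all genes under the filter is not given, so this count gives no direction for the step. Atg7 (chromosome 6, 114643097 to 114860614), the E1-like enzyme that activates Atg12 and the proteins to be lipidated, had 89, 50 and 71 counts in DKO and 4, 9 and 2 in WT. In normalized CPM the lowest DKO library stood at 92.03 and the highest WT library at 34.77. The means were 143.6 ± 54.9 in DKO and 22.06 ± 12.18 in WT (SD, n = 3 each), a log2 fold change of 2.67 (SE 0.98, edgeR adjusted p = 0.390; DESeq2 adjusted p = 0.0493). Atg16l1 (chromosome 1, 87755870 to 87792428), which places the conjugation machinery on the membrane, had 2108, 242 and 376 counts in DKO and 29, 30 and 10 in WT. DKO library 1 stood far above the other 2 DKO libraries and held 76.1% of the summed normalized CPM, and the remaining DKO libraries were still above all WT libraries. The fitted log2 fold change of Atg16l1 was 4.21 (SE 1.82, edgeR adjusted p = 0.404; DESeq2 adjusted p = 0.0242), or 2.59 without DKO library 1.

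The other 6 conjugation genes were under the filter. Atg5 (chromosome 10, 44268358 to 44364291), which is joined to Atg12 and then acts with Atg16l1, had 27, 11 and 9 counts in DKO and 0 in each WT library. Its mean in DKO, 32.92 ± 24.42 normalized CPM (SD, n = 3), was at least 7.03-fold higher than 3 counts summed over the WT libraries, taken as the floor, a bound that covers counting error only. DKO library 1 held 61.8% of the summed normalized CPM of Atg5, so the bound leans on that library. Atg3, the E2-like enzyme for LC3, had 13, 4 and 9 counts in DKO and 0, 2 and 34 in WT. Atg10, the E2-like enzyme for Atg12, had 2, 3 and 3 against 1, 15 and 1, and Atg12 itself had 4, 10 and 3 against 0, 11 and 0. The LC3 proteases Atg4b and Atg4d had 9, 24 and 7 against 6, 92 and 2 counts, and 2, 3 and 7 against 1, 346 and 1 counts. In 4 of these 6 genes (Atg4b, Atg4d, Atg10 and Atg12) WT library 2 held over 50% of the summed normalized CPM.

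Of the 34 listed symbols with a RefSeq promoter (GRCm38.p6, 250 bases before to 50 after the start), 6 held the letters CACGTG, a palindrome that TFEB and TFE3 are known to bind, or 17.6% of these genes, where 8.09% of all 27025 symbols did. By promoter, 6 of 41 held them (14.6%), against 2349 of 32851 in all (7.15%). Median GC content was 61.3% in the promoters of the pathway and 52.7% over all promoters, so the windows differ in base composition too. The 6 genes were Atg3, Atg5, Atg7, Atg14, Mul1 and Rubcn. Of these, Atg3, Atg14 and Mul1 had a lower mean normalized CPM in DKO, with groups that overlapped, and Rubcn was not analysed. The promoters of 3 conjugation genes are shown, because Atg5 and Atg7 were higher in every DKO library, while Atg3, which has 2 copies of the letters, was not. Capitals mark CACGTG, which begins 14 bases upstream of the start in Atg5, 132 in Atg7, and 94 and 71 in Atg3. The start used for Atg7 lies inside the annotated gene, which begins at 114643097 on the plus strand, and its window has a GC content of 42.7%. The window of Atg2b, also higher in every DKO library, lacks the letters. A match of letters is a description of the window and not a binding site.
Atg5, chr10:44268089-44268388, plus strand: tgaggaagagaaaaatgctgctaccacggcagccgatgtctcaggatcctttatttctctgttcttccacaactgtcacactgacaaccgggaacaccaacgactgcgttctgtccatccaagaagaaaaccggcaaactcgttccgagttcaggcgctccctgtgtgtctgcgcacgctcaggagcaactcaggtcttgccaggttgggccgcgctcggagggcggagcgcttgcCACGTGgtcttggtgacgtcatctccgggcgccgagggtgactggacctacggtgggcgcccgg
Atg7, chr6:114670846-114671145, plus strand: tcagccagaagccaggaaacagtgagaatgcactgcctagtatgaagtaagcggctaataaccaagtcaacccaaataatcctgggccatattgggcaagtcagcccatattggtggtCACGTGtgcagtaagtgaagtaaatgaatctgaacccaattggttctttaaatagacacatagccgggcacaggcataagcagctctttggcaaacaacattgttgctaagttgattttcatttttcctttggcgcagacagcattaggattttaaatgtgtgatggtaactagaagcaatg
Atg3, chr16:45158579-45158878, plus strand: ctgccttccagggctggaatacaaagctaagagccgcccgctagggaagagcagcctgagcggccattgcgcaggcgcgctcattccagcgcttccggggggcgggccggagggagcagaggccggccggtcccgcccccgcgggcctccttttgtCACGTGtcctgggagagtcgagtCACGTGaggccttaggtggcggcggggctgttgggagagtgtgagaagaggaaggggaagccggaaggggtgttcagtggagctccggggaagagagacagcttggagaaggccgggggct

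Map1lc3a, Map1lc3b, Gabarap, Gabarapl1 and Gabarapl2 encode small proteins that conjugation fixes to the membrane. Of these, Map1lc3b, which encodes LC3B, was the 1 gene with enough counts to be tested, with 32, 51 and 81 counts in DKO and 0, 34 and 14 in WT. The groups overlapped because WT library 2, at 131.4 normalized CPM, lay among the DKO libraries, with a log2 fold change of 0.64 (SE 1.20, edgeR adjusted p = 0.843). Gabarap had 18, 11 and 8 counts in DKO and 2, 0 and 1 in WT, with no overlap between the groups. Gabarapl1 had 1, 14 and 18 against 6, 9 and 0 counts, and Gabarapl2 had 3, 14 and 3 against 5, 0 and 4. With library totals in place of TMM scaling the groups of Map1lc3b did not overlap.

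Tfeb and Tfe3 encode transcription factors that switch on autophagy and lysosome genes, and both were under the filter. Tfeb (chromosome 17, 47737030 to 47792419) had 1, 1 and 3 counts in DKO and 30, 4 and 59 in WT, or 3.30 ± 2.18 and 160.7 ± 147.2 normalized CPM (SD, n = 3 each). The DKO libraries were all below the WT libraries, although WT library 2, with 4 counts, was near them. Tfe3 had 6, 5 and 4 counts in DKO and 3, 6 and 3 in WT, and its groups were apart after TMM scaling but overlapped when library totals were used. Summed, the pair took 0.00157%, 0.00116% and 0.00136% of all counts in DKO and 0.0105%, 0.002% and 0.0194% in WT. The sums also did not overlap after TMM scaling, at 11.04 to 15.83 normalized CPM in DKO and 38.64 to 325.6 in WT.

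Pink1 (chromosome 4, 138313409 to 138326307), the kinase that accumulates on damaged mitochondria, had 2, 4 and 5 counts in DKO and 5, 17 and 16 in WT, or 7.19 ± 2.58 and 58.6 ± 29.6 normalized CPM (SD, n = 3 each), and was under the filter. The DKO libraries all lay below the WT libraries, which also held with library totals.

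The other genes of the PINK1 arm pointed in both directions. Huwe1 (chromosome X, 151800807 to 151935417), a ubiquitin ligase that acts with Ambra1 in mitophagy of human cells, had 36, 43 and 50 counts in DKO and 4, 17 and 1 in WT. The DKO libraries were close together at 79.15 to 96.84 normalized CPM and above all WT libraries, with a log2 fold change of 1.45 (SE 1.03, edgeR adjusted p = 0.556), or 2.73 without WT library 2. Vdac1, the voltage-dependent channel of the outer membrane, had 16, 57 and 22 counts in DKO and 19, 1 and 2 in WT, and its value of 0.71 became 3.15 without WT library 1. Mul1, a ubiquitin ligase of the outer membrane, had 16, 11 and 4 counts in DKO and 5, 92 and 0 in WT. Its log2 fold change of -2.57 (SE 1.48) could not be fitted without WT library 2, where it had 79.7% of its summed normalized CPM, because the gene was then under the filter. Tomm7, which stabilises Pink1 at the import channel in human cells, had 7, 11 and 9 counts in DKO and 4, 3 and 0 in WT. Nipsnap1, a mitochondrial protein that recruits autophagy receptors in human cells, had 4, 2 and 33 against 6, 59 and 6 counts.

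The last group acts on the mitophagy receptors themselves. Fbxl4, a subunit of the ubiquitin ligase that keeps Bnip3l and Bnip3 proteins low, had 5, 3 and 5 counts in DKO and 3, 7 and 360 in WT, so that 96.5% of its summed normalized CPM lay in WT library 3. Its groups were apart after TMM scaling and overlapped with library totals. Pptc7, a mitochondrial phosphatase that works with Fbxl4, had 74, 15 and 18 counts in DKO and 4, 3 and 19 in WT. It was the 1 gene tested here, with a log2 fold change of 0.80 (SE 1.14, edgeR adjusted p = 0.784), which ran from -0.30 without DKO library 1 to 2.29 without WT library 3. Rad9b, which overlaps Pptc7 on the opposite strand, had 103, 70 and 62 counts in DKO and 2, 1 and 2 in WT. Pgam5, the phosphatase that acts on the receptor Fundc1, had 3, 15 and 3 against 0, 0 and 7 counts. Csnk2b, the regulatory subunit of casein kinase 2, which phosphorylates that receptor, had 7, 7 and 5 against 0, 8 and 0 counts. A row spelled CSNK2A1 in capitals had 11 counts in DKO library 3 and 0 in the other 5 libraries, and was not counted as a member.

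**Figure D3:**
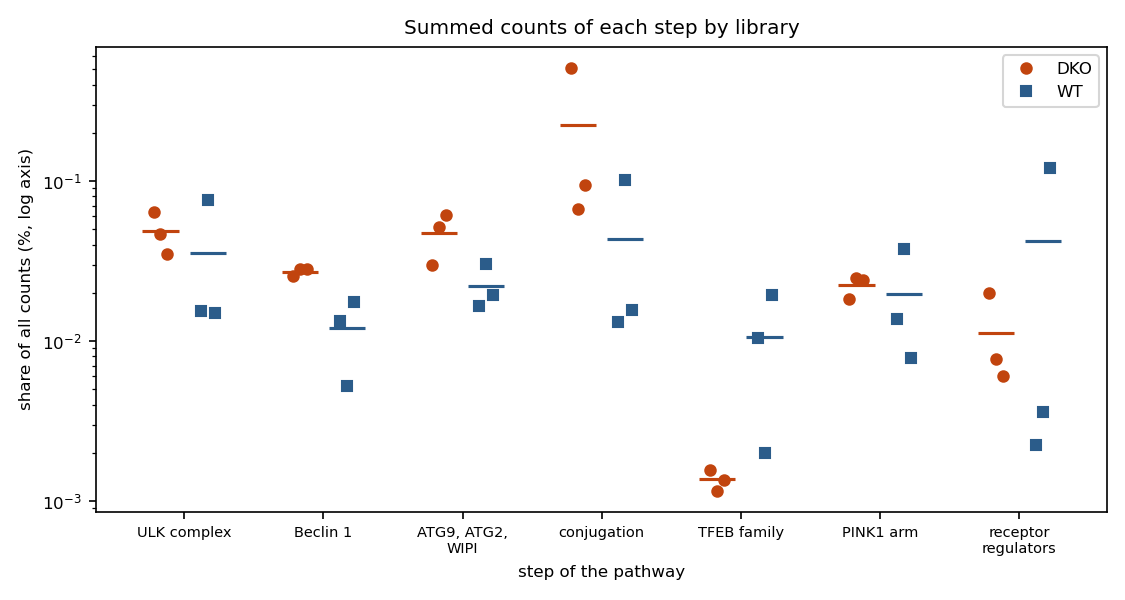
Share of all counts of a library (percent, log axis) taken by each of 7 steps of the pathway, with 1 point per library, DKO circles left of WT squares, and the group mean as a line. The Beclin 1 group has every DKO point above every WT point, which did not hold after TMM scaling, and the TFEB family has every DKO point below.

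Summed by step, 2 groups did not overlap, and both took a small share. The Beclin 1 group took 0.0254%, 0.028% and 0.028% of all counts in DKO and 0.0134%, 0.00519% and 0.0175% in WT, the TFEB family is given above, and each of the other 5 steps overlapped. Conjugation genes took 0.507%, 0.0671% and 0.0942% in DKO and 0.0131%, 0.101% and 0.0156% in WT. Over all libraries together 75.9% of the counts of that step came from Atg16l1, most of them from DKO library 1 (2108 counts). In WT library 2 Atg4d had 346 counts and Atg16l1 30, so there the sum did not follow Atg16l1. These shares are of library totals. TMM scaling raised WT values relative to DKO values, and the Beclin 1 sums then overlapped, at 255.6, 266.9 and 278.9 normalized CPM in DKO and 219.4, 100.5 and 294.1 in WT. Per kilobase of annotated exon, the highest mean normalized levels in DKO were those of Atg16l1 (206 normalized CPM per kilobase), Ulk2 (47.8) and Atg2b (23.7). In WT they were those of Fbxl4 (170), Atg4d (61.8) and Ulk1 (45.6), and in each of these 3 genes over 60% of the sum came from a single WT library, with 68.9% for Ulk1 in WT library 2.

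Single libraries carried many of these values, as they did for many of all genes tested. Of the 38 pathway genes with a count, 15 had over 50% of their summed normalized CPM in 1 library (39.5%). The share over all genes with a count is not given, so this number is no result about the pathway. Among the 17 tested the number was 3 (17.6%), where 29.7% of all tested genes had that pattern. WT library 2 held the highest value for 14 of the 38 genes and for 6 of the 17 tested. Over all 8895 genes tested it did so for 2013, more than any other library. For 12 of the 17 tested genes, with no share over all genes given, the fold change moved by over 1.5-fold when some 1 library was left out. The exceptions were Becn1, Atg2b, Wipi2, Atg7 and Mul1, of which Mul1 could not be fitted without WT library 2. The groups of Atg2b, Atg7, Atg16l1, Becn1 and Huwe1, which did not overlap after TMM scaling, did not overlap with library totals either. Library totals raise every DKO library relative to every WT library, so this outcome was fixed and is no independent check.

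**Figure D4:**
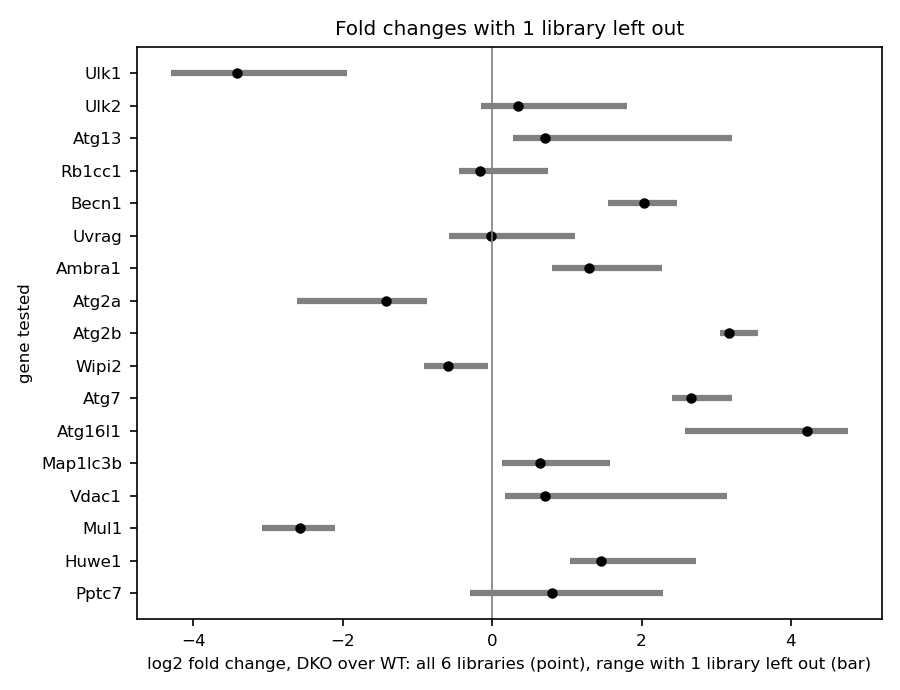
Log2 fold changes, DKO over WT, of the 17 tested genes with all 6 libraries (points) and their range with 1 library left out (bars; Mul1 has no value without WT library 2). Atg2b has the shortest bar (3.05 to 3.56), and the bars of Ulk2, Rb1cc1, Uvrag and Pptc7 cross 0.

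The other genes of the pathway, a further list of 52 symbols, gave 51 with a row and 34 tested, of which 14 lay above 0 and 20 below (median log2 fold change -0.28), and 0 passed the edgeR test. All DKO libraries lay above all WT libraries for 4 of them (Rragc, Afg3l2, Rhot1 and Csnk2a2) and below for 1 (Epg5), shares no higher than the 12.8% and 6.39% of all tested genes. Of these, Rragc, Afg3l2 and Csnk2a2 passed the filter through DKO libraries alone, where they are high, so their separation is no independent sign of a difference. Around initiation the smallest p-values were those of Epg5, which tethers autophagosomes to lysosomes, at -3.65 (SE 1.63, edgeR adjusted p = 0.409), Tecpr1 at -2.37 (SE 1.14) and the scramblase gene Tmem41b at 1.40 (SE 0.98). Epg5 had 51, 60 and 25 counts in DKO and 78, 39 and 552 in WT, and was at -1.54 without WT library 3; its groups were apart after TMM scaling and overlapped with library totals. Tecpr1 was at -0.63 without WT library 1, and Tmem41b at 0.61 without DKO library 1. Around conjugation they were Atg16l2 at -2.93 (SE 1.63), the scaffold gene Wdfy3 at -0.997 (SE 1.04) and Tecpr2 at 0.79 (SE 1.12), and each moved by over 1.5-fold when 1 library was left out, to -8.26 without DKO library 3, -0.20 without WT library 3 and 2.98 without WT library 3.

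For the control of TFEB, the genes with the smallest p-values were Flcn, Rragc and Fnip2. Rragc, a Rag GTPase of the lysosomal surface, had 31, 41 and 37 counts in DKO and 5, 3 and 5 in WT (log2 fold change 1.76, SE 0.93, edgeR adjusted p = 0.446), and all its DKO libraries lay above the WT libraries. Flcn, which encodes a protein that regulates the Rag GTPases, had -3.23 (SE 1.61), which was -0.11 without WT library 3, while its partner Fnip2 was at -0.80 (SE 1.15), or 0.70 without WT library 3. Around PINK1, Usp30, a deubiquitinase of the outer membrane that opposes mitophagy, had 12, 12 and 6 counts in DKO and 0, 90 and 130 in WT (-4.06, SE 1.57, edgeR adjusted p = 0.390), or -3.02 without WT library 3. Afg3l2, an inner-membrane protease, had 10, 15 and 89 counts in DKO and 3, 0 and 0 in WT (3.82, SE 1.48), or 7.88 without WT library 1. Csnk2a2, the second catalytic subunit gene of casein kinase 2, had 10, 58 and 21 counts in DKO and 2, 1 and 2 in WT (2.76, SE 1.09), or 2.03 without DKO library 2. The groups of Afg3l2 and Csnk2a2 did not overlap, and those of Usp30 did. DESeq2 called Usp30 (DESeq2 adjusted p = 0.0183) and Epg5 (DESeq2 adjusted p = 0.0335) among the named genes of this list.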

How the data were processed

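Per the labels, RNA of small pools of sorted cells was amplified and sequenced. Tools listed in the submitters' processing notes, without roles, are STAR, CASAVA, edgeR and R 3.6.3, with the build mm10. How reads were counted, with which annotation and strand setting, was not given in the sources used here. The authors deposited 1 table of whole-number counts per gene symbol, not normalized, and all tests started from these counts. All listed genes and lists were chosen with earlier results of these data known; 1 further listed gene and the sum of 1 step are not reported here. Genes were kept with edgeR's filter (minimum count 10), scaled by TMM (factors 1.28 to 1.375 in DKO and 0.6954 to 0.8125 in WT) and compared with edgeR 4.0.16's robust quasi-likelihood F test over 8895 genes, Benjamini-Hochberg adjusted, threshold 0.05; SE is the absolute log2 fold change over the square root of F. The biological coefficient of variation was 0.915. The fit was also run on simulated counts with the same spread in both groups, and the outcome is not given or used here. Normalized CPM divides counts by TMM-scaled totals of tested genes, so 1 count is 1.841 to 2.262 in DKO and 3.864 to 5.252 in WT. Alternatives were DESeq2 1.42.0, limma 3.58.1 voom, other scalings and filters, a replicate block and leaving out each library. No 2 libraries were near-duplicates. Further genes of the pathway were named as the 3 smallest p-values per list. Positions and exon lengths come from GENCODE for mm10, and promoters from RefSeq GRCm38.p6. Computations used R 4.3.3 and Python 3.11.15.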

Additional observations from a re-analysis of the deposited data

How the results depend on the processing

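DESeq2 called 218 genes higher and 383 lower in DKO, and 3 and 1 pathway genes; with no filter on low counts edgeR called 22 and 108 genes and no pathway gene. Pathway genes above 0 numbered 21 with no filter and 19 with a mean CPM of at least 10; those below 0 numbered 17, 15 and, with no scaling factor, 3, or 6 to 12 with 1 library left out. Non-overlapping groups that were higher in DKO numbered 5 to 9 with 1 library left out. Lower ones numbered 3 with no filter, 4 with the mean CPM filter and 1 to 4 with 1 library left out. Where filters changed, other genes were tested, and with 1 library left out a smaller group separates more readily. The shares over all genes are not given for these settings, so these counts are no result about the pathway. The median log2 fold change of the Beclin 1 group (1.29) was 2.14 with no scaling factor, 0.95 with no filter, 0.84 with the mean CPM filter, 1.73 in limma-voom, 1.76 with the replicate block and 0.80 to 1.83 with 1 library left out. Left-out ranges were -0.49 to 0.62 for the ATG9, ATG2 and WIPI group and -2.27 to -0.54 for the PINK1 group (0.71 with all libraries, and no value without WT replicate 2, which left under 3 genes). The filter was refitted each time, so the genes in these medians changed. The PINK1 group had 3 genes with all libraries and 4 or 5 in the left-out fits, where Pink1, Nipsnap1 or both were added. In those fits Huwe1 and Vdac1 stayed above 0 and Mul1 below. The DKO minus WT share of counts, in percentage points, changed with DESeq2 size factors to -0.0164 (ULK), 0.00377 (Beclin 1), 0.00381 (ATG9, ATG2 and WIPI) and -0.0123 (PINK1), against 0.0131, 0.0151, 0.0255 and 0.00252 with library totals; with TMM factors, chosen after seeing the data, it was 0.00526, 0.00671 and -0.0101 for the Beclin 1, ATG9 and PINK1 groups.

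Directions reversed for Rb1cc1 (0.67 with no scaling factor, 0.13 with no filter, 0.053 with the mean CPM filter, 0.0017 in limma-voom, 0.086 with the replicate block, -0.44 to 0.74 left out), Uvrag (0.71, 0.33, 0.17, 0.15, 0.13, and -0.57 to 1.11), Wipi2 (0.14 with no scaling factor), Fnip2 (0.29 in limma-voom, -1.33 to 0.70 left out), Ulk2 (-0.15 to 1.80 left out) and Pptc7 (-0.30 to 2.29 left out). The cause was not tested. Libraries with the same number correlated at 0.0227, 0.0265 and 0.0368 in their deviations from the group means, and each DKO library correlated best with the WT library of its number. Correlations this low cannot decide whether the numbers pair the samples. The replicate block called 0 genes (lowest edgeR adjusted p 0.335). Low counts limit these values: 3 counts are 5.522 to 15.75 normalized CPM.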
